A study of Mus musculus with 4 samples.

Results

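Gene expression in bone marrow cells labelled Nfkb1 knockout was compared between day 5 and day 3 of culture with Flt3 ligand, over all 26026 genes of the deposited table. Each day was represented by 1 library of polyadenylated RNA, so every difference below is a value without a test. The cells were labelled BMDC, the usual short form for bone marrow-derived dendritic cells, and had the genotype Nfkb1-/- (C57/B16). They grew in RPMI with serum, 2-BME, penicillin and streptomycin and 100 ng/mL Flt3L, and the medium was replenished on day 3. Set beside them were wild-type (C57/B16) cells at day 5 and at day 3 in the same medium, also with 1 library each. The labels do not give the kind of Nfkb1 allele, the sex or age of the mice, or whether both days came from the same marrow. The stated aim of the series was the interplay of RelA and p50, the short product of Nfkb1, during this differentiation.

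Flt3 ligand acts through the receptor Flt3 on marrow progenitors and drives them toward plasmacytoid and conventional dendritic cells. Marrow also contains cells already on other paths, such as neutrophils and their precursors, basophils, B cell precursors, erythroid cells and megakaryocytes, which this cytokine does not sustain in the same way. Nfkb1 encodes p105, which is processed to p50, an NF-kB subunit that binds DNA but has no transactivation domain of its own. Expression is given in RPKM, reads divided by transcript length and library size, and differences are log2(RPKM + 1) at day 5 minus day 3, a scale that understates the change of low genes.

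The knockout libraries held 15398985 reads at day 5 and 16215214 reads at day 3, and the wild-type libraries 16116361 and 15255070, as worked out from the steps between RPKM values. A gene entered the comparison with a mean of at least 1 RPKM and 20 reads over the 4 libraries, which 11141 genes met and 14885 did not. A difference of at least 1, or 2-fold in RPKM + 1, is called higher or lower by the size rule. Ratios of day 5 to day 3 are given with exact 95% intervals of the reads, which cover counting error only. Nfkb1 itself had 64.7 RPKM at day 5 and 56.02 RPKM at day 3 in the knockout, against 114 RPKM at day 5 and 74.8 RPKM at day 3 in wild type, so reads assigned to the targeted gene were present in the libraries labelled knockout, and these gene-level sums cannot check which part was deleted. Dendritic cell genes were detected in all 4 libraries: Flt3 had 56.6 RPKM at day 5 and 32.2 RPKM at day 3 in the knockout, Irf8, a factor required for cross-presenting and plasmacytoid dendritic cells, had 119 RPKM at day 5 and 94.1 RPKM at day 3, and Siglech, a surface lectin of plasmacytoid cells, had 15.7 RPKM at day 5 and 11.6 RPKM at day 3. The gene with the highest RPKM in the knockout was Lyz2, the lysozyme of monocytes, macrophages and neutrophils, at day 5 (5383 RPKM) and S100a9, a neutrophil protein, at day 3 (9254 RPKM).

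The knockout culture at day 5 differed from that at day 3 mainly by genes with a lower level. By the size rule 317 genes were lower, 2.85% of those tested, and 30 were higher, 0.269%. In wild type 184 genes were lower over the same interval (1.65%) and 176 were higher (1.58%). The median over all tested genes was 0.04 in the knockout and 0.16 in wild type, and rescaling the libraries by their median ratio moved the wild-type median to 0.01 and its counts to 280 lower and 114 higher. In the knockout 58 genes were lower by at least 2 on the log2 scale and none was higher by as much, whereas in wild type 12 were lower and 10 higher by that size. The ratio interval lay below 1 for all 317 lower genes and above 1 for all 30 higher genes. It lay wholly below 0.5 for 276 and wholly above 2 for 19 of them. These genes were called on the same reads, so an interval that excludes 1 was nearly fixed by the rule. The interval therefore adds no support to the calls. Both directions together, 3.11% of all tested genes passed the rule in the knockout. The knockout difference was below that of wild type for 68.2% of all tested genes, and by at least 1 for 2.15%. After rescaling by the median ratio these shares were 51.0% and 1.39%, and every count of members below wild type is to be read against them.

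**Figure D1:**
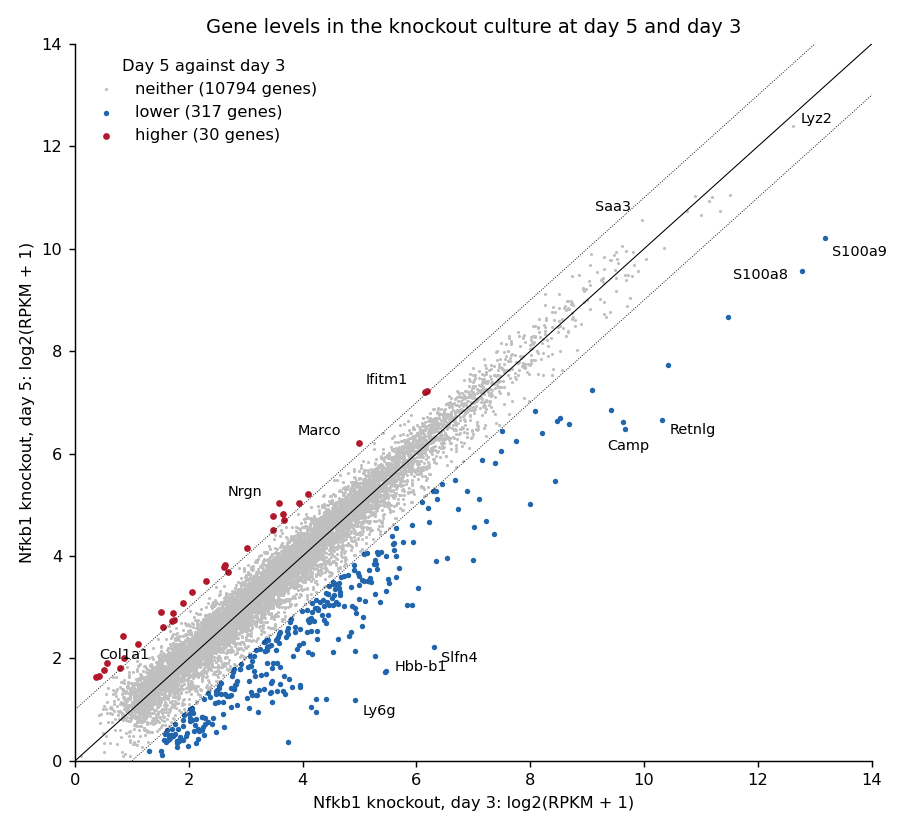
Level of each of the 11141 tested genes in the knockout culture at day 5 (vertical) and day 3 (horizontal), as log2(RPKM + 1), with lines of equality (solid) and of a difference of 1 (dotted). The 317 lower genes reach up to the most abundant transcripts, while the 30 higher genes end at 148 RPKM.

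The lower genes were spread over the whole range of abundance. Among the 20 genes with the highest RPKM in the knockout at day 3, 5 were lower at day 5 by the size rule, and among the first 100 it was 12, with none higher in either set. Ranking by day 3 favours drops. Ranked by day 5 instead, 1 of the first 20 and 3 of the first 100 were lower and none higher, beside 2.85% lower among all tested genes. The genes higher at day 5 were of low or moderate abundance, with a median of 9.63 RPKM at day 5 and a maximum of 148 RPKM. Most lower genes were not abundant either, with a median of 13.58 RPKM at day 3. Of the 317 lower genes, 99 belonged to at least 1 of 50 described gene lists, and of the 30 higher genes, 14 did. The lists matched 1255 genes of the whole table, so at most 1255 of the 11141 tested genes were in a list. The exact number of tested genes in a list was not worked out. The lists were made with earlier results of these data known, so these counts do not measure an enrichment.

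Genes of neutrophil maturity made up 12 of the 20 largest drops. They belong to a list drawn up with earlier results of these data known. Late neutrophil genes encode the contents of secondary and tertiary granules and the surface proteins of mature cells, which a precursor acquires after it has stopped making primary granules. Of 31 listed genes 30 passed the filter and so were among the 11141 tested genes. In the knockout 29 of the 30 were lower at day 5, 96.7% beside 2.85% of all tested genes. The median difference was -2.67 beside 0.04 over all genes. In wild type 27 of the same 30 were lower, with a median of -1.29. The summed level of the list was 1878 RPKM at day 5 and 10260 RPKM at day 3 in the knockout, and 6004 RPKM at day 5 and 15120 RPKM at day 3 in wild type. In a bulk library, fewer neutrophils and less of this RNA in each neutrophil cannot be told apart.

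Ly6g, the surface protein by which mouse neutrophils are usually identified, had 1.27 RPKM at day 5 and 29.4 RPKM at day 3 in the knockout, on 18 and 440 reads. That is a ratio of 0.0431 (0.0253 to 0.0689) and a log2 difference of -3.75. In wild type it had 11.8 RPKM at day 5 and 39.7 RPKM at day 3, a difference of -1.67. The knockout library at day 5 was therefore the lowest of the 4 and the wild-type library at day 3 the highest. Retnlg, a resistin-like protein secreted by neutrophils, was likewise lowest in the knockout at day 5 and highest in wild type at day 3, with 100.4 RPKM at day 5 and 1277 RPKM at day 3 in the knockout and a ratio of 0.0786 (0.0735 to 0.0840), against 684 RPKM at day 5 and 2052 RPKM at day 3 in wild type. Asprv1, a retroviral-like aspartic protease, had 0.297 RPKM at day 5 and 12.4 RPKM at day 3 in the knockout, on 7 and 309 reads.

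Genes of the neutrophil granules were lower together. Camp, the precursor of the antimicrobial peptide cathelicidin, had 88.8 RPKM at day 5 and 813 RPKM at day 3 in the knockout, a difference of -3.18 beside -1.37 in wild type. Ltf, which encodes the iron-binding lactoferrin, had 96.8 RPKM at day 5 and 789.8 RPKM at day 3, and Ngp, neutrophilic granule protein, had 408 RPKM at day 5 and 2835 RPKM at day 3. Their ratios were 0.122 (0.119 to 0.127) and 0.144 (0.140 to 0.147). Lcn2, which binds bacterial iron carriers, had 212 RPKM at day 5 and 1366 RPKM at day 3 in the knockout, and Mmp9, a gelatinase of the tertiary granules, had 42.9 RPKM at day 5 and 346 RPKM at day 3. Pglyrp1, a peptidoglycan-binding protein, had 31.4 RPKM at day 5 and 253 RPKM at day 3, and Olfm4, a glycoprotein that marks a subset of neutrophils, had 1.32 RPKM at day 5 and 20.3 RPKM at day 3. Each of these 7 genes was lowest in the knockout at day 5 and highest in wild type at day 3.

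Surface receptors of mature neutrophils were also lower. Cd177 had 14.2 RPKM at day 5 and 127 RPKM at day 3 in the knockout, and Cxcr2, the receptor that guides neutrophils toward CXC chemokines, had 7.26 RPKM at day 5 and 56.1 RPKM at day 3. Itgb2l, a beta integrin of granulocytes, differed by -2.88 in the knockout and -1.30 in wild type. Csf3r, the receptor for the granulocyte growth factor G-CSF, had a smaller difference of -1.30, at 15.9 RPKM at day 5 and 40.4 RPKM at day 3. The exception in the list was Hp, haptoglobin, with 421 RPKM at day 5 and 625 RPKM at day 3 and a difference of -0.57 in the knockout, against -1.19 in wild type. Hp was 1 of 3 members whose drop was smaller in the knockout than in wild type, and 27 of 30 had the larger drop in the knockout, 18 of them by at least 1, beside 68.2% and 2.15% of all tested genes with the lower value in the knockout. After rescaling by the median ratio the counts were 27 and 16.

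S100a8 and S100a9 encode the 2 chains of calprotectin, the calcium- and metal-binding protein that fills the cytosol of neutrophils. S100a9 had 1187 RPKM at day 5 and 9254 RPKM at day 3 in the knockout, on 9527 and 78181 reads, a ratio of 0.128 (0.126 to 0.131). S100a8 had 752 RPKM at day 5 and 7005 RPKM at day 3, with a ratio of 0.107 (0.104 to 0.111). Together they made up 0.616% of the summed RPKM of the knockout library at day 5 and 4.86% at day 3, against 2.80% at day 5 and 6.89% at day 3 in wild type. Not all S100 genes followed this pair. S100a6 was lower by the size rule at 113 RPKM at day 5 and 269 RPKM at day 3, but S100a4, a family member linked to cell motility, had 254 RPKM at day 5 and 167 RPKM at day 3 and a difference of 0.60. The stefins, inhibitors of cathepsins, divided in the same way: Stfa2l1 and Cstdc4 of the myeloid stefin cluster differed by -3.23 and -3.28, whereas the broadly expressed Cstb differed by -0.12.

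**Figure D2:**
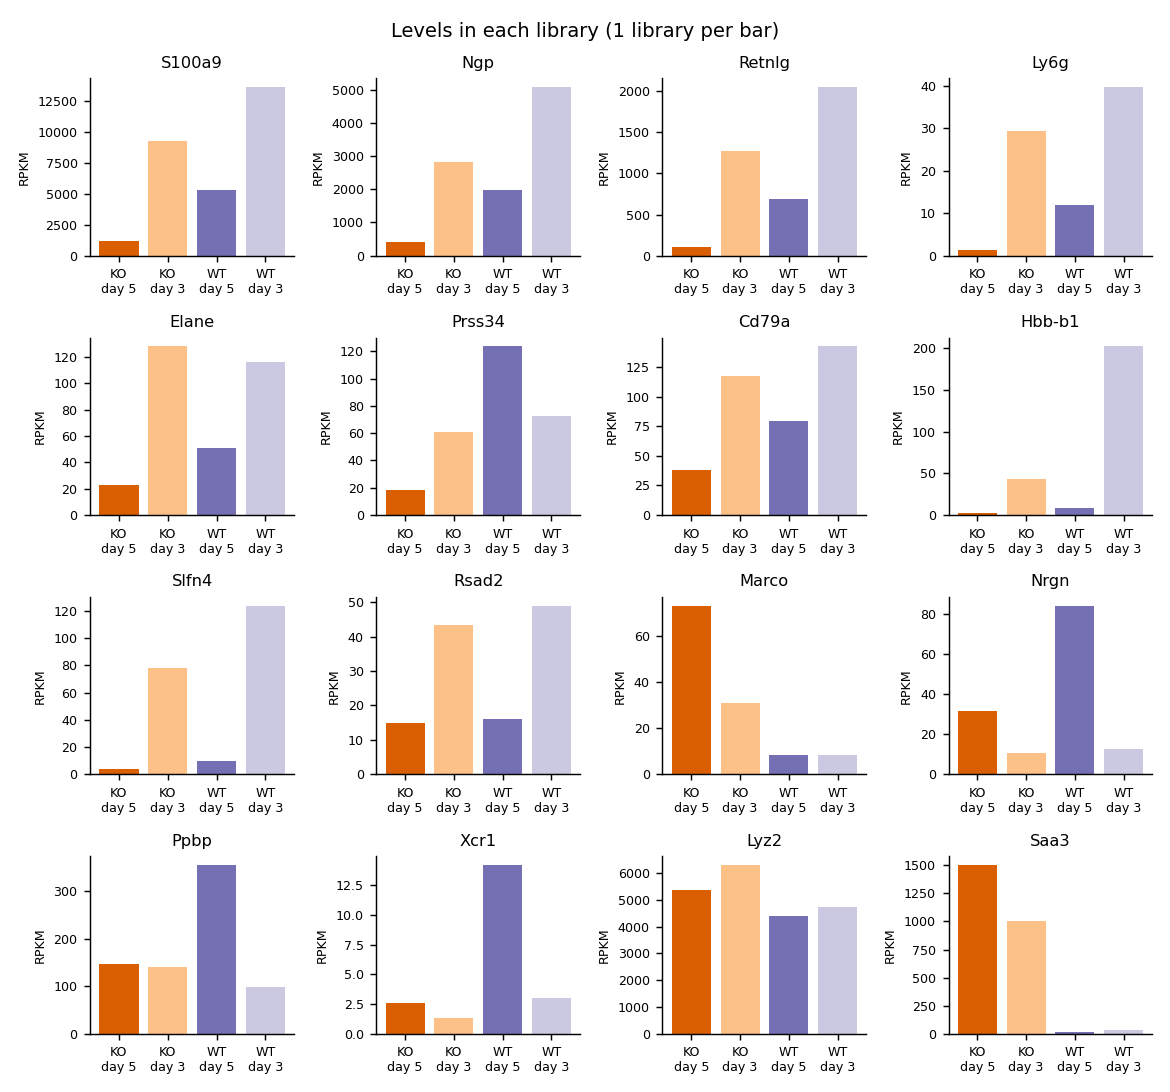
RPKM of 16 genes in the 4 libraries (1 library per bar, linear axis from 0, own scale per gene), with the knockout at day 5 and day 3 left of wild type at day 5 and day 3. S100a9, Ngp, Retnlg, Ly6g, Elane and Cd79a are lowest in the knockout at day 5, Prss34, Ppbp and Xcr1 are highest in wild type at day 5, and Marco and Saa3 are highest in the knockout at day 5.

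Primary granule genes, which are made earlier, at the promyelocyte stage, were divided. Their list also takes in other genes of neutrophil precursors, such as the transcription factor Cebpe, and Nkg7, which is in the T and NK cell list too. Of 16 measured members 6 were lower and none higher in the knockout, 37.5% beside 3.11% of all tested genes past the rule. The list median was -0.74, and in wild type 3 were lower with a median of -0.67. Elane, neutrophil elastase, had 22.7 RPKM at day 5 and 128 RPKM at day 3 in the knockout, a ratio of 0.177 (0.157 to 0.200). Mpo, myeloperoxidase, had 102 RPKM at day 5 and 366 RPKM at day 3, and Cebpe, the transcription factor that the switch to secondary granules requires, had 4.20 RPKM at day 5 and 23.7 RPKM at day 3. Fcnb, a ficolin, and Ms4a3, a tetraspan protein of granulocyte and monocyte precursors, differed by -2.78 and -1.57. Prtn3, proteinase 3, stayed inside the rule at 209 RPKM at day 5 and 232 RPKM at day 3, and Ctsg, cathepsin G, differed by -0.88. Ctsc, the protease that activates these enzymes, had 112 RPKM at day 5 and 81 RPKM at day 3 and a difference of 0.46. Elane and Mpo were thus lower while Prtn3, a protease of the same granules, was near its day 3 level.

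Some of the lower genes stood outside the neutrophil lists. The long noncoding RNA Mirt2 had 1.07 RPKM at day 5 and 16.7 RPKM at day 3 in the knockout, and Mapk13, a p38 kinase, had 1.31 RPKM at day 5 and 17.8 RPKM at day 3. Their differences were -3.10 and -3.02, beside -1.62 and -1.29 in wild type. Mxd1, an antagonist of Myc that accompanies the end of proliferation, had 11.1 RPKM at day 5 and 48.9 RPKM at day 3. Mir223, the locus of the myeloid microRNA miR-223, was chosen after its values were seen and had 12.4 RPKM at day 5 and 38.7 RPKM at day 3 in the knockout, on 21 and 69 reads, a ratio of 0.321 (0.187 to 0.529), and differed by -0.66 in wild type. Reads of polyadenylated RNA at this locus do not measure the mature microRNA. Its 2 mature arms are shown because they carry the targeting sequence of the locus that differed, with the seed, bases 2 to 8, in capitals, from RefSeq (GRCm38.p6, chromosome X, plus strand).
mmu-miR-223-5p, chrX:96242842-96242864: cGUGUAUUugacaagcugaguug
mmu-miR-223-3p, chrX:96242884-96242905: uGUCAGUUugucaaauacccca

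The promoter windows of the neutrophil genes were searched for 3 short motifs on both strands. A window runs from 250 bases before to 50 bases after an annotated start, in RefSeq GRCm38.p6, and a gene may have several overlapping windows. The motifs were TTGCNNAA, a core of C/EBP sites, an NF-kB core written as GGGA, any 4 bases, CC, and an interferon response core written as GAAA, any 2 bases, GAAA. TTGCNNAA was present in 25% of 28 windows of late neutrophil genes and in 28.6% of 14 windows of primary granule genes, against 14.5% of 289 windows of all lower genes, 8.56% of 11280 windows of tested genes and 10.8% of 32851 windows in all. The NF-kB core was present in 42.9% of the late neutrophil windows and 14.3% of the primary granule windows, against 24.2% of the windows of lower genes, 26.1% of those of tested genes and 20.7% of all. The interferon core was in none of the 28 late neutrophil windows, a count near the 3.38% of windows of tested genes that held it. A match is a run of letters, not a bound site. The windows of the 2 late neutrophil genes with the largest drop are shown for their motif content, with matches in capitals, all read on the opposite strand. In Ly6g a C/EBP core begins at -232 and an NF-kB core at -138 from the annotated start, in Retnlg a C/EBP core begins at -246, and no matches overlap. Ly6g has a second annotated start, not shown, whose window overlaps this one and holds the same NF-kB core, at -206 from that start, and no C/EBP core.
Ly6g, chr15:75155011-75155310, plus strand: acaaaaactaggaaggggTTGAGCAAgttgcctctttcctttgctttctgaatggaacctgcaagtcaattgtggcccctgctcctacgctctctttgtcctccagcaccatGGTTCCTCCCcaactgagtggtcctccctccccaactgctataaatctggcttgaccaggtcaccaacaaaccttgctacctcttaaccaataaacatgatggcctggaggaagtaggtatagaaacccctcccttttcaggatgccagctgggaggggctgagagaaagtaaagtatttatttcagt
Retnlg, chr16:48872358-48872657, plus strand: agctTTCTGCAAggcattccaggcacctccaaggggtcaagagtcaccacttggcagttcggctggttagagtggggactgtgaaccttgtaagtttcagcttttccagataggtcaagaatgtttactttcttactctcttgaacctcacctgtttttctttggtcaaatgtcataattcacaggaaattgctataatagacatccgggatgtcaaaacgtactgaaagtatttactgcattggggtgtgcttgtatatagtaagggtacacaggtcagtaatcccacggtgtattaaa

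Basophil, mast cell and eosinophil genes were lower in the knockout and mostly level in wild type. Of 23 measured genes, 13 were lower in the knockout at day 5, 56.5% beside 2.85% of all tested genes, with a median of -1.11. In wild type 4 were lower with a median of -0.04. The difference between day 5 and day 3 was the lower in the knockout for 91.3% of the 23 genes, beside 68.2% of all tested genes, and by at least 1 for 47.8%, beside 2.15%. After rescaling by the median ratio it was lower by at least 1 for 7 of the 23. The summed level was 259.5 RPKM at day 5 and 769 RPKM at day 3 in the knockout, against 757 RPKM at day 5 and 821 RPKM at day 3 in wild type. Each of these differences rests on 1 library per side, and the difference between the cultures was not tested.

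Prg2, eosinophil major basic protein, had 94.9 RPKM at day 5 and 410.3 RPKM at day 3 in the knockout, a ratio of 0.231 (0.217 to 0.246), against 341 RPKM at day 5 and 404 RPKM at day 3 in wild type. Fcer1a, the IgE-binding chain of the high-affinity receptor on basophils and mast cells, had 1.33 RPKM at day 5 and 7.09 RPKM at day 3 in the knockout, on 21 and 118 reads, against 7.38 and 6.07 RPKM in wild type. Prg2 and Fcer1a were at like levels in the 2 cultures at day 3 and stood apart at day 5. Further genes were chosen after their values were seen. The basophil protease Prss34 had 18.3 RPKM at day 5 and 60.7 RPKM at day 3 in the knockout. Another, Mcpt8, had 10.9 RPKM at day 5 and 35.5 RPKM at day 3, and the mast cell carboxypeptidase Cpa3 had 6.21 RPKM at day 5 and 20.8 RPKM at day 3. Their wild-type differences were 0.76, 0.44 and 0.59, all with the higher value at day 5.

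Gata2, a transcription factor that basophils, mast cells and stem cells need, had 2.34 RPKM at day 5 and 5.82 RPKM at day 3 in the knockout, a difference of -1.03 beside -0.07 in wild type. Hdc, which makes histamine, had 6.01 RPKM at day 5 and 32.3 RPKM at day 3, and Epx, eosinophil peroxidase, had 1.57 RPKM at day 5 and 11.5 RPKM at day 3. Both were lower in wild type as well, with differences of -1.44 and -1.48. The lipoxygenases Alox5, which starts leukotriene synthesis, and Alox15 differed by -2.42 and -1.91 in the knockout and by -1.27 and -1.07 in wild type. Ltb4r1, the receptor for leukotriene B4, had 7.09 RPKM at day 5 and 28.3 RPKM at day 3 in the knockout. Inside the rule were the chemokines Ccl3 and Ccl4, which many myeloid cells make. Ccl3 had 18.9 RPKM at day 5 and 18.3 RPKM at day 3, and Ccl4 had 10.9 RPKM at day 5 and 12.4 RPKM at day 3.

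B cell genes were lower in both cultures. All 26 measured members had the lower level at day 5 in the knockout, beside 4960 of all 11141 tested genes. By the size rule 15 of the 26 were lower, 57.7% beside 2.85% of all tested genes, with a median of -1.13. In wild type 8 were lower by the rule with a median of -0.80. Vpreb3, of the pre-B cell receptor complex, had 10.1 RPKM at day 5 and 44.7 RPKM at day 3 in the knockout, and Pou2af1, a coactivator of immunoglobulin genes, had 7.92 RPKM at day 5 and 30.96 RPKM at day 3. Cd79a, the signalling chain of the B cell receptor, had 37.7 RPKM at day 5 and 117 RPKM at day 3, a ratio of 0.322 (0.293 to 0.354). Ms4a1, which encodes CD20, and the kinase Blk differed by -1.63 and -1.57. The genes of the earliest lymphoid stage differed less: Dntt, the terminal transferase, had 12.8 RPKM at day 5 and 14.5 RPKM at day 3, and Il7r, the interleukin-7 receptor, had 14.4 RPKM at day 5 and 17.98 RPKM at day 3. Of the T and NK cell list, 2 of 16 were lower, Nkg7 and Cd2, and Cd5 was higher at 5.15 RPKM at day 5 and 1.91 RPKM at day 3. Those past the rule are 18.8% of the measured genes of that list, beside 3.11% of all tested genes.

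Globin transcripts were lower at day 5 in both cultures. Hbb-b1 had 2.37 RPKM at day 5 and 43.1 RPKM at day 3 in the knockout, on 23 and 441 reads, and 8.36 RPKM at day 5 and 203 RPKM at day 3 in wild type. Hbb-bs is a near-identical copy that held the same number of knockout reads, so the 2 are 1 observation. Hba-a1 and Hba-a2, another such pair, both differed by -1.90 in the knockout, and by -3.56 and -3.39 in wild type. All 5 lower members of the erythroid list were globins, 38.5% of its measured genes beside 2.85% of all tested genes. Both pairs of copies are among the 5, so these are not 5 separate observations and the share is overstated. The other 8 measured genes of the list stayed inside the rule, among them Tfrc, the transferrin receptor, at 50.3 RPKM at day 5 and 46.1 RPKM at day 3.

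Megakaryocyte and platelet genes had a median near 0 in the knockout and leaned higher at day 5 in wild type. In the knockout 2 of 25 measured genes were higher, 8% beside 0.269% of all tested genes. None was lower, near the 2.85% of all tested genes, and the median was -0.03. In wild type 13 were higher, beside 1.58% of all tested genes, with a median of 1.01. The knockout difference was below that of wild type for all 25, beside 68.2% of all tested genes, and by at least 1 for 15, or 60%, beside 2.15%. After rescaling by the median ratio it was below for all 25 and by at least 1 for 12. The 2 that passed were Nrgn, which encodes neurogranin and is abundant in platelets, and Slc6a4, the serotonin transporter by which platelets load serotonin. Nrgn had 31.7 RPKM at day 5 and 10.9 RPKM at day 3 in the knockout, against 84.4 and 12.5 RPKM in wild type, and Slc6a4 had 6.45 RPKM at day 5 and 1.84 RPKM at day 3, against 13.4 and 1.38 RPKM. Chosen after their values were seen, Ppbp, a platelet chemokine, had 147 RPKM at day 5 and 139 RPKM at day 3 in the knockout and a wild-type difference of 1.85, and Itga2b, the platelet fibrinogen receptor chain, had 49.8 RPKM at day 5 and 47.1 RPKM at day 3 and a wild-type difference of 1.46. The sign of the knockout median is not fixed: it was positive when the libraries were rescaled to the same sum of RPKM and when a mean of at least 5 RPKM was required.

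**Figure D3:**
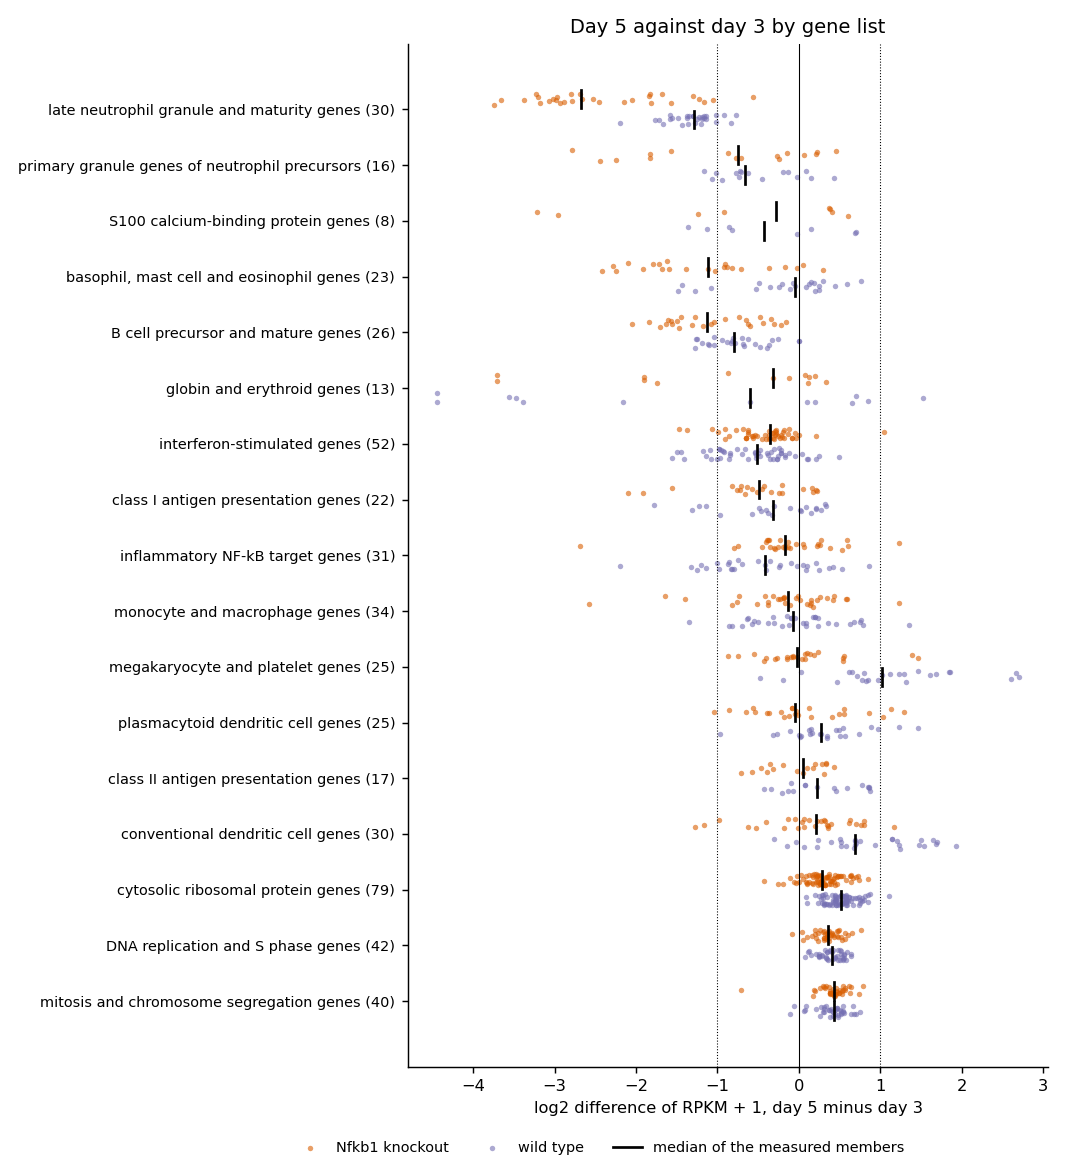
Differences between day 5 and day 3 of the measured members of 17 gene lists, with knockout values (orange) above wild-type values (violet) in each row, black bars at the medians and dotted lines at the size rule of 1. The number of members is in brackets; the late neutrophil median is -2.67 in the knockout and -1.29 in wild type, and the megakaryocyte medians are -0.03 and 1.01.

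Genes of the dendritic lineage that Flt3 ligand supports mostly stayed inside the rule in the knockout. Of 30 measured conventional dendritic cell genes, 1 was higher and 2 were lower, 10% of the list beside 3.11% of all tested genes. The median was 0.21, with 20 members above 0 and 10 below. In wild type 12 were higher and none lower, beside 1.58% and 1.65% of all tested genes, with a median of 0.69. The knockout difference was below that of wild type for 26 of the 30, beside 68.2% of all tested genes, and by at least 1 for 9, beside 2.15%. After rescaling by the median ratio it was below for 25, beside 51.0%, and by at least 1 for 6, beside 1.39%. Flt3 itself differed by 0.79 in the knockout, with a ratio of 1.76 (1.66 to 1.86), and by 1.47 in wild type. Fscn1, which encodes the actin-bundling fascin of mature dendritic cells, was the 1 higher member at 6.38 RPKM at day 5 and 2.29 RPKM at day 3. Mgl2, a lectin of type 2 conventional dendritic cells, had 9.34 RPKM at day 5 and 24.03 RPKM at day 3, and Jaml, an adhesion protein, had 12.3 RPKM at day 5 and 28.8 RPKM at day 3. Xcr1 and Clec9a, markers of cross-presenting dendritic cells, were chosen after their values were seen. Xcr1 had 2.60 RPKM at day 5 and 1.34 RPKM at day 3 in the knockout, and Clec9a had 6.39 RPKM at day 5 and 3.37 RPKM at day 3. Their wild-type differences were 1.93 and 1.68.

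Of 25 plasmacytoid dendritic cell genes 3 were higher and 1 lower, 16% of the list beside 3.11% of all tested genes. The list median was -0.04 and turned positive on rescaling to the same sum. Cox6a2, a respiratory chain subunit, had 26.3 RPKM at day 5 and 10.2 RPKM at day 3, Cd7 had 36.1 RPKM at day 5 and 16.01 RPKM at day 3 and Runx2, a transcription factor of these cells, had 21.9 RPKM at day 5 and 10.2 RPKM at day 3. Cd7 and Runx2 were also higher in wild type, by 1.46 and 1.23, and Cox6a2 differed there by 0.27. Spib, a factor of plasmacytoid and B cells, was lower in the knockout at 32.2 RPKM at day 5 and 67.5 RPKM at day 3 and level in wild type, at 58.4 and 58.5 RPKM. None of 17 class II presentation genes passed the rule in either culture, a count near the 3.11% of all tested genes that passed in the knockout. Cd74, the invariant chain, had 842 RPKM at day 5 and 748 RPKM at day 3 in the knockout, against 1830.0 and 1333 RPKM in wild type. The knockout difference was below the wild-type one for all 17 genes as deposited, never by as much as 1, and for 11 of them after rescaling by the median ratio, 64.7% beside 51.0% of all tested genes.

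Of 34 monocyte and macrophage genes 30 lay inside the rule, 1 was higher and 3 were lower, with a median of -0.14. The 4 that passed are 11.8% of the list, beside 3.11% of all tested genes. Lyz2 differed by -0.23 and Apoe, the lipid carrier of macrophages, by 0.15. The lower genes were Chil3, a chitinase-like protein of macrophages and neutrophil precursors, at 114 RPKM at day 5 and 682 RPKM at day 3, Ear2, an eosinophil-associated ribonuclease, at 10.3 RPKM at day 5 and 34.5 RPKM at day 3, and Arg1, arginase 1, at 1.41 RPKM at day 5 and 5.34 RPKM at day 3. Marco, a scavenger receptor that binds bacteria, was the higher gene, at 73.2 RPKM at day 5 and 30.8 RPKM at day 3 and a ratio of 2.38 (2.21 to 2.57), against 8.57 and 8.28 RPKM in wild type. Ly6c2, which marks inflammatory monocytes, lay inside the rule at 469 RPKM at day 5 and 829 RPKM at day 3.

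NF-kB subunit and regulator genes differed little between the days. None of 26 measured genes passed the rule in either culture, a count near the 3.11% of all tested genes that passed in the knockout, and the knockout differences ran from -0.41 to 0.55. Nfkb2, the gene of p100 and p52, differed by 0.12, Rela by -0.16, Relb by -0.05 and Rel by 0.14, with the sign of the value for Relb depending on the rescaling. Nfkbia, the inhibitor IkB alpha, had 93.6 RPKM at day 5 and 114 RPKM at day 3. Of 31 inflammatory target genes of NF-kB, 1 was higher, Marco, and 1 lower, Lcn2, 6.45% beside 3.11% of all tested genes. The list median was -0.17, and in wild type 6 were lower with a median of -0.41. The knockout difference was below that of wild type for 8 of the 31, 25.8% beside 68.2% of all tested genes, and above it for 23. It was above by at least 1 for 5, beside 38 of all 11141 tested genes, and below by as much for 1. After rescaling by the median ratio 19.4% were below, beside 51.0%. Saa3, an acute phase serum amyloid, had 1504 RPKM at day 5 and 1002 RPKM at day 3 in the knockout, against 12.7 and 33.5 RPKM in wild type, so it differed by 0.59 and -1.33. Sod2, the mitochondrial superoxide dismutase, had 55.2 RPKM at day 5 and 60.6 RPKM at day 3 in the knockout, a ratio of 0.911 (0.869 to 0.955), and none of 32 antioxidant genes passed the rule, again near the share of all genes.

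Interferon-stimulated genes leaned lower. Of 52 measured genes 50 had the lower level at day 5 in the knockout, beside 4960 of all 11141 tested genes. By the rule 3 of the 52 were lower, beside 2.85% of all tested genes, and the list median was -0.36. In wild type 9 were lower by the rule, with a median of -0.51. The knockout difference was below that of wild type for 18 of the 52, 34.6% beside 68.2% of all tested genes, and above it for 34, never by as much as 1. After rescaling by the median ratio 17.3% were below, beside 51.0%. Rsad2, which encodes the antiviral enzyme viperin, had 15 RPKM at day 5 and 43.4 RPKM at day 3 in the knockout and 15.9 and 48.98 RPKM in wild type. Its genomic neighbour Cmpk2 differed by -1.07, and Ifit3b by -1.38. Ifitm1, a membrane protein that restricts virus entry, was higher in the knockout at 148 RPKM at day 5 and 71.3 RPKM at day 3, a ratio of 2.08 (1.91 to 2.26), and differed by 0.25 in wild type.

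The single largest drop in the knockout was Slfn4, a Schlafen gene of myeloid cells, with 3.64 RPKM at day 5 and 78.1 RPKM at day 3, a ratio of 0.0467 (0.0406 to 0.0534). In wild type it had 9.78 and 124 RPKM, a difference of -3.53 beside -4.09 in the knockout. Slfn1 had 14.6 RPKM at day 5 and 92 RPKM at day 3 in the knockout, and the other 6 measured Schlafen genes stayed inside the rule, among them Slfn2 with 187 RPKM at day 5 and 279 RPKM at day 3. Class I presentation genes also leaned lower in the knockout, with a median of -0.49. By the rule 3 of 22 were lower there, 13.6% beside 2.85% of all tested genes. In wild type 4 were lower, with a median of -0.32. The 3 of the knockout were the nonclassical H2-Q10, H2-Q6 and H2-Q7, close copies of each other that may share reads. H2-K1 differed by -0.64 in the knockout.

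The interferon response core was present in 54.5% of 44 promoter windows of the interferon list and 50% of 8 windows of the Schlafen list, against 4.15% of the windows of all lower genes, 3.38% of those of tested genes and 3.44% of all windows. Windows were at hand for 38 of 52 measured interferon genes and 7 of 8 measured Schlafen genes. The windows of Slfn4, the largest drop, and Rsad2, the largest drop of the interferon list and chosen for display after its values were seen, are shown because they differ in this respect. Slfn4 has none of the 3 motifs in this window, which says only that these letters are not there. In Rsad2 the interferon core begins at -120 and an NF-kB core at -75, both read on the opposite strand and not overlapping.
Slfn4, chr11:83174936-83175235, plus strand: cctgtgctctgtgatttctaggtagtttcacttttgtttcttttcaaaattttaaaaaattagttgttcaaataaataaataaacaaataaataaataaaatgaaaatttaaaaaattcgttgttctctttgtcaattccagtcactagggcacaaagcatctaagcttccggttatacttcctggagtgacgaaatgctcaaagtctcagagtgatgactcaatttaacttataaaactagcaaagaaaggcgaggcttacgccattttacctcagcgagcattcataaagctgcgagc
Rsad2, chr12:26456403-26456702, minus strand: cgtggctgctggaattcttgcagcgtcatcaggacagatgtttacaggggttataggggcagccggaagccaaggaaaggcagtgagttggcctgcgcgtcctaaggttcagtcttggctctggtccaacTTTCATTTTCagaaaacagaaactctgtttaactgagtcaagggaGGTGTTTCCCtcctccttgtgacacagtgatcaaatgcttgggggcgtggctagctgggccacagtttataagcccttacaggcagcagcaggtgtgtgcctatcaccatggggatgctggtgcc

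Genes of growth stood slightly higher at day 5 in the knockout, none by the size rule, beside 0.269% of all tested genes. Of all 11141 tested genes, 6179 had the higher level at day 5 in the knockout and 7918 in wild type. The median was 0.35 for 42 DNA replication genes, of which 41 had the higher level at day 5, and 0.43 for 40 mitosis genes, of which 39 did. Top2a, the topoisomerase of dividing cells, had 183 RPKM at day 5 and 126 RPKM at day 3 in the knockout, and Pcna, the replication clamp, had 155 RPKM at day 5 and 125 RPKM at day 3. The medians in wild type were 0.41 and 0.43. Ribosome biogenesis genes had a median of 0.33, with all 39 higher at day 5, and Npm1, nucleophosmin, had 285 RPKM at day 5 and 177 RPKM at day 3. Cytosolic ribosomal protein genes had a median of 0.29 in the knockout and 0.52 in wild type. Aminoacyl tRNA synthetase genes had a median of 0.27, cholesterol synthesis genes 0.35, respiratory chain genes 0.20 and proteasome genes 0.19. RPKM values are shares of a library, and the late neutrophil list held 0.596% of the summed RPKM at day 5 and 3.06% at day 3. Its part in the values of the growth genes was not tested. Rescaling by the median ratio of genes shifts a well-expressed gene by -0.03 and rescaling to the same sum by 0.09, which leaves the sign of each of these medians.

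Of the 30 higher genes, the 14 that belonged to a list were spread over several. Of 28 stem and progenitor genes 2 were higher, the cathepsin inhibitors Ctla2a and Ctla2b, and 2 were lower, Gata2 and the adhesion receptor Adgrl4. Those past the rule are 14.3% of the measured genes, beside 3.11% of all tested genes. Ctla2a had 13.2 RPKM at day 5 and 5.22 RPKM at day 3 in the knockout, and Ctla2b had 10.5 RPKM at day 5 and 3.92 RPKM at day 3. In wild type they differed by 2.77 and 2.59. Of 10 measured stromal genes 2 were higher and 1 lower, 30% beside 3.11% of all tested genes. Col1a1, a chain of type I collagen, had 2.12 RPKM at day 5 and 0.291 RPKM at day 3, on 194 and 28 reads. The other chain, Col1a2, had 2.16 RPKM at day 5 and 0.331 RPKM at day 3. Vcam1, an adhesion molecule of stroma and macrophages, was lower at 2.24 RPKM at day 5 and 9.29 RPKM at day 3. Other higher genes were Syt13, a synaptotagmin, at 2.42 RPKM at day 5 and 0.427 RPKM at day 3, and Tnni2, a troponin subunit, at 8.79 RPKM at day 5 and 3.15 RPKM at day 3. Ctnnd2, a catenin, had 7.43 RPKM at day 5 and 2.72 RPKM at day 3, and the noncoding RNA Snhg15 had 12.8 RPKM at day 5 and 5.10 RPKM at day 3. Tmem238 had 2.78 RPKM at day 5 and 0.469 RPKM at day 3. Pmaip1, the proapoptotic Noxa, had 25.1 RPKM at day 5 and 11.8 RPKM at day 3. Ubb-ps, a ubiquitin pseudogene whose reads may belong to Ubb, had 4.43 RPKM at day 5 and 0.789 RPKM at day 3 in the knockout.

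Set side by side, the 2 cultures shared part of the lower genes. Of the 317 genes lower in the knockout, 134 were lower in wild type too, which is 42.3% of the knockout genes and 72.8% of the wild-type genes, 183 stayed inside the rule in wild type, and none was higher there, beside 1.65% lower and 1.58% higher among all tested genes in wild type. After rescaling by the median ratio 174 genes were lower in both cultures and 154 in the knockout alone. In 114 of the 134 the knockout value was the lower, and after that rescaling in 134 of the 174. Of the 30 genes higher in the knockout, 14 were higher in wild type, 46.7% of the knockout genes and 7.95% of the wild-type genes, 15 stayed inside the rule and 1, Ubb-ps, was lower. A further 162 genes were higher in wild type and inside the rule in the knockout, and 103 after the rescaling. Each culture had its own libraries at both days, and no difference between them was tested.

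**Figure D4:**
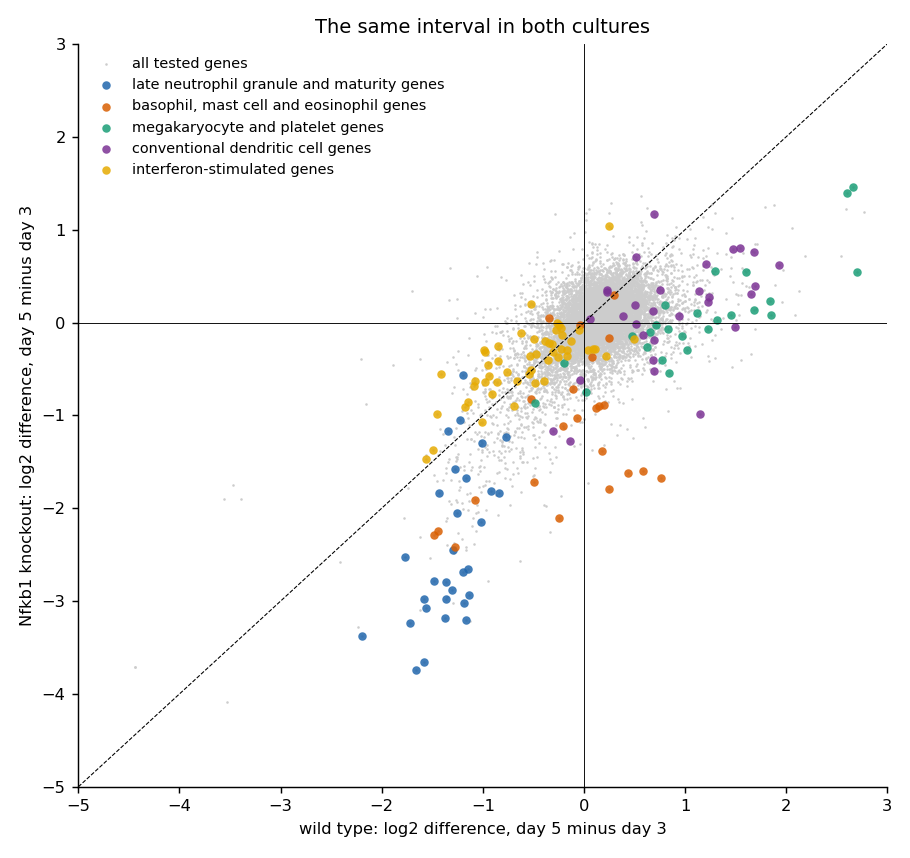
Difference between day 5 and day 3 in the knockout (vertical) and in wild type (horizontal) for the tested genes, with 5 gene lists in colour and a dashed line of equal differences; 1 gene, Ubb-ps, lies outside the axes. Late neutrophil genes lie below the line in 27 of 30 cases, basophil genes in 21 of 23 and megakaryocyte genes in 25 of 25, beside 68.2% of all tested genes.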

How the data were processed

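Polyadenylated RNA of 4 cultures, knockout and wild type at day 5 and day 3, was sequenced in 1 library each. Per the labels' protocols, trizol was used for extraction and the Kapa mRNA HyperPrep kit for the libraries. HISAT2, SAMtools and the mm9 build were used, per the submitters' processing notes. Counting tool, annotation and strand handling: not given in the sources used here, so overlapping genes cannot be told apart. The table deposited by the authors holds RPKM values, per the file headers.

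In each library a gene's values rise in steps of 1 read, and from these steps library totals, gene lengths and whole reads were recovered for all 26026 genes (tolerance 0.003 reads). A reference length was at hand for 22187 of them. For others, reads may be too few by a whole factor. That affects their reads and intervals, and the minimum of reads in the filter, but not the deposited RPKM values. Such genes may therefore be missing from the tested genes and from the counts built on them. No value is 0: genes without reads stand at 1 read, or 1 was added throughout, as 7912 genes did in every library.

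Differences were taken as log2(RPKM + 1) without rescaling (Python 3.11.15, pandas 2.3.3, scipy 1.17.1). Intervals are exact (Clopper-Pearson) for the share of day 5 among the reads of both days, and without molecular identifiers the reads are not independent molecules. Read recovery and the size rule were tried on simulated libraries. The simulation supplied the true length of every gene and held counting error only. It therefore cannot speak for genes without a reference length or for variation between cultures. Of 1406 list symbols 1396 were matched, 36 under another name in RefSeq. Promoter and microRNA sequences are RefSeq's for GRCm38.p6, not the build of the reads.

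The gene lists, the size rule and the choice of genes to name were made with earlier results of these data known. Named are Nfkb1, Nfkb2, Rela, Relb, Rel, Sod2, Flt3, the 15 largest rises and 20 largest drops, the 10 highest genes of either knockout library, up to 6 members of each list with the largest difference past the rule (or, with none, the 2 highest), and genes past the rule in opposite directions. A named list member that none of these takes is given as an example chosen after its values were seen, as are Hp, S100a4, Cstb, Prtn3, Ctsg, Ctsc, Irf8, Siglech, Ccl3, Ccl4, Dntt, Il7r, Tfrc, Ly6c2, Slfn2 and H2-K1. Alternatives were pseudocounts of 0.1 and 5 RPKM, no filter, a filter without a minimum of reads, a mean of at least 5 RPKM, both rescalings and a 1.5-fold rule.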

Additional observations from a re-analysis of the deposited data

Results flagged for a closer look

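For 7 of the genes described and 1 list median, the differences between day 5 and day 3 had opposite signs in the genotypes and lay at least 1 apart on the log2 scale, each from 1 library per group. Pairs of opposite sign that lay closer, such as Cebpa, are not listed. These differences were not tested, and the causes were not tested.

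Fcer1a, the IgE-binding receptor chain of basophils and mast cells, differed by -1.80 in the knockout and 0.24 in wild type. Its RPKM was 1.33 in the knockout at day 5 and 7.09 at day 3, against 7.38 and 6.07 in wild type. Saa3, the acute phase serum amyloid, differed by 0.59 in the knockout and -1.33 in wild type, on 12301 reads at day 5 and 8625 at day 3 in the knockout, against 109 and 271 in wild type. Ubb-ps differed by 1.60 in the knockout, on 48 and 9 reads, and by -6.33 in wild type, on 11 and 1685 reads. The wild-type library at day 3 stands apart for this pseudogene, while its parent gene Ubb had 185 RPKM at day 5 and 195 RPKM at day 3 in the knockout and 232 and 169 RPKM in wild type. Prss34, Mcpt8 and Cpa3, proteases of basophils and mast cells, differed by -1.68, -1.62 and -1.60 in the knockout and by 0.76, 0.44 and 0.59 in wild type. Kit, the stem cell factor receptor, differed by -0.90 in the knockout and 0.15 in wild type. The median of the megakaryocyte and platelet genes was -0.03 in the knockout and 1.01 in wild type. The knockout median lies so near 0 that its sign depends on the setting: it was 0.05 on rescaling to the same sum and 0.03 with a mean of at least 5 RPKM.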

How the results depend on the processing

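With 1 library per side no replicate can be left out, and no difference has a spread between replicates. The counts of 30 higher and 317 lower genes depend on the pseudocount and filter. A pseudocount of 0.1 RPKM gave 73 higher genes, and one of 5 RPKM gave 5 higher and 145 lower genes. Without a filter 76 were higher, without the minimum of reads 70, and a 1.5-fold rule gave 257 higher and 756 lower. The share of calls that were lower was 91.4%, and 82.5% to 96.7% under the other pseudocounts, filters and rescalings, so lower genes outnumbered higher ones in each. Rescaling to the same sum gave 37 higher and 285 lower genes, and the median over all genes ran from 0.0041 to 0.1149. Of the 98 named genes past the rule, 98 remained past it with a pseudocount of 0.1 RPKM, 61 with 5 RPKM, 98 on rescaling by the median ratio and 92 on rescaling to the same sum, which lost Mxi1, Cmpk2, Spib, Adgrl4, Gata2 and Socs1. With a mean of at least 5 RPKM the medians of the T and NK cell list and the stromal list reversed, to 0.33 and -0.13, on fewer genes. Rescaling to the same sum changed the sign of 8 list medians that lay near 0. No paired analysis was possible because each group has 1 library and no replicate numbers. Few reads limit the low genes, such as Asprv1, Cstdc4, Mapk13, Mirt2 and Ubb-ps, and the single library limits all.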

Other observations

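Some lower genes lay outside the lists and were chosen after their values were seen. The eosinophil-associated ribonuclease gene Ear6 had 7.66 RPKM at day 5 and 33.2 RPKM at day 3 in the knockout. Its relative Ear7 had 7.63 RPKM at day 5 and 40.2 RPKM at day 3, and Ear12 had 14.9 RPKM at day 5 and 48.8 RPKM at day 3, which gives differences of -1.98, -2.25 and -1.65. In wild type they differed by -0.37, -0.33 and -0.51, inside the size rule. These genes are close copies that may share reads, so they are not independent of each other or of Ear2. Dgat1 and Dgat2, 2 enzymes of triglyceride synthesis, were chosen in the same way and stand for no group. Dgat1 had 10.6 RPKM at day 5 and 31.9 RPKM at day 3 in the knockout, against 23.9 and 39.5 RPKM in wild type. Dgat2 had 2.77 RPKM at day 5 and 10.7 RPKM at day 3 in the knockout, against 5.79 and 13.1 RPKM in wild type. G0s2, an inhibitor of lipolysis, had 1.46 RPKM at day 5 and 11.9 RPKM at day 3 in the knockout, against 4.34 and 12.7 RPKM in wild type. Pygl, the glycogen phosphorylase of liver and neutrophils, had 75.1 RPKM at day 5 and 214 RPKM at day 3 in the knockout, against 124 and 274 RPKM in wild type.

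Counts past the rule in the lists below lie near the 3.11% of all tested genes that passed it in the knockout. Of 32 transcription factor genes 2 were lower in the knockout, Cebpe and Gata2, and none higher. Cebpa, a factor of granulocyte and monocyte precursors, had 25.9 RPKM at day 5 and 41.7 RPKM at day 3 in the knockout and a difference of -0.67, beside 0.22 in wild type, and Spi1, which encodes PU.1, had 171 RPKM at day 5 and 182 RPKM at day 3. Of 23 growth factor receptor genes 1 was lower, Csf3r, and none higher, and Kit, the stem cell factor receptor, had 5.67 RPKM at day 5 and 11.4 RPKM at day 3. Of 22 integrin and adhesion genes 1 was lower, Itgb2l, and 7 had a knockout difference at least 1 below that of wild type, 31.8% beside 2.15% of all tested genes. No Toll-like receptor or inflammasome gene of 33 passed the rule in the knockout, and neither did any of 22 early response genes.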
